A study of Mus musculus with 12 samples.

Results

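Integrins are adhesion receptors built from an α and a β chain that bind extracellular matrix, complement fragments or adhesion molecules on other cells. Leukocytes carry a set in which the β2 chain pairs with αL, αM, αX or αD, and these pairs serve firm adhesion, phagocytosis of complement-coated particles and antigen capture. Itgax encodes αX, the chain known as CD11c, which is used as a marker of dendritic cells and is also carried by several kinds of tissue macrophage.

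The genes described here encode 10 integrin chains: Itgax, Itgam, Itgal and Itgb2 of the β2 family, Itga4, Itga5, Itga6 and Itgb1 of the β1 family, and Itgav and Itgb3. The group was chosen by earlier results of these data, in which Itgax differed in its response to IL-4 with and without Wnt3a, and the other 9 chains were set beside it by name. All values of Itgax are therefore given as a description, without a test, and counts below cover the other 9. The 10 genes are 10 of the 48526 in the table and 10 of the 12421 that passed the count filter, and the lowest count of any of them in any library was 53.

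RNA was sequenced from bone marrow-derived macrophages (BMDMs) of 3 female C57Bl/6J mice, grown with 10 ng/mL of the macrophage growth factor mCSF and used on day 7 of culture. The study's methods give the age of donor mice for such cultures as a range of several weeks, and the labels give none for single mice. From every mouse, 1 culture stayed untreated and the other 3 received Wnt3a (100 ng/mL), an activator of Wnt signaling, IL-4 (100 pg/mL) or the combination for 16 hr, to ask whether Wnt3a changes the response to IL-4. The 4 groups therefore share the same mice, and the authors deposited raw read counts per gene.

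The deposited Wnt3a and Wnt3a+IL4 columns of each mouse share reads. In the same mouse 0 of 48526 genes had a Wnt3a count below 1 or above 2 times the Wnt3a+IL4 count, whereas between 6681 and 8625 genes lay outside these bounds when the columns came from different mice. Each pair was separated into 2 parts: the difference, which is the Wnt3a column minus the Wnt3a+IL4 column, and the remainder, which is the Wnt3a+IL4 column minus the difference. Both parts come from Wnt3a-treated cells, but the labels do not say which is Wnt3a alone and which is Wnt3a with IL-4. Neither part was assigned from its values. The untreated, IL-4, difference and remainder libraries held between 13342492 and 17453377 counts each.

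The cells carried macrophage transcripts in every group. The summed level of 8 macrophage markers, such as Csf1r, Adgre1 and Lyz2, was 51300 to 58480 CPM, the read count scaled to the depth of the library, in untreated libraries, 44150 to 52380 with IL-4, 58250 to 68510 in the difference and 57510 to 57940 in the remainder. Most of it was Lyz2, with means of 45330, 37860, 52940 and 46920 CPM in the same order of groups. Against untreated cells 1 of the 8 fell with IL-4, 3 rose and 1 fell in the difference, and 1 rose in the remainder. Over all tested genes 3.40%, 23.2% and 25.3% were called in these comparisons, in that order. In bulk RNA, a change in the number of cells of a type and a change in RNA per cell cannot be told apart.

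The promoters of Itgax and Itgam are shown because these β2 partners lie next to each other on chromosome 7 and differed in which libraries carried more of their RNA. Itgax (ENSMUSG00000030789) spans chr7:128129547-128150657 and Itgam (ENSMUSG00000030786) chr7:128062640-128118491, both on the plus strand of mm10. The 250 bases before the RefSeq start of each gene (GRCm38.p6, plus strand) lie at chr7:128129300-128129549 for Itgax and at chr7:128062390-128062639 for Itgam. Capitals mark matches to the motifs searched on both strands, which were TTCNNNNGAA (STAT6 type), TTCNNNGAA (STAT3 type), TGANTCA (AP-1), GAGGAA (PU.1) and CTTTGAT (TCF/LEF).
Itgax: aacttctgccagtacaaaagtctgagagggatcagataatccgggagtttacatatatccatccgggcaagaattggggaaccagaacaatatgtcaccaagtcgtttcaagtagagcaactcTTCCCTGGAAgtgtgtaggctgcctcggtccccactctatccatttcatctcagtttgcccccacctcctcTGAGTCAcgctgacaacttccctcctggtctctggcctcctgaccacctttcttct
Itgam: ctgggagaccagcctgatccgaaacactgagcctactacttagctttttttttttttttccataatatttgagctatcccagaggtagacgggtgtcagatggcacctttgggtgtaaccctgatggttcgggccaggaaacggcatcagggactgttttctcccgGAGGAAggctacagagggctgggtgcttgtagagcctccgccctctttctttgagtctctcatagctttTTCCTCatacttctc

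The Itgax window held TTCCCTGGAA with its first base 127 bases before the start and TGAGTCA 56 bases before it. The motif TTCNNNNGAA occurred in 5.85% and TGANTCA in 6.75% of the 32851 promoter windows of the same length. The Itgam window held GAGGAA 84 bases before the start and its reverse complement TTCCTC 15 bases before it, and GAGGAA in either orientation occurred in 23.3% of all windows. Among the 6 members with a RefSeq window (Itgax, Itgam, Itga4, Itgav, Itgb1 and Itga5), TTCNNNNGAA and TGANTCA were found in Itgax alone, and GAGGAA in Itgam, Itgav, Itgb1 and Itga5. TTCNNNGAA, present in 7.02% of all windows, and CTTTGAT, present in 3.21%, matched none of the 6. A match is a description of letters and not of binding. Itgal, Itgb2, Itga6 and Itgb3 had no window.

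Itgax RNA was low in untreated macrophages and high in the IL-4 and remainder libraries. Untreated libraries held 20.0, 25.2 and 24.0 CPM in mouse 1, 2 and 3, and IL-4 libraries held 199.8, 175 and 154 CPM. The difference held 60.6, 55.0 and 59.9 CPM, and the remainder 240.0, 232 and 260.1 CPM. The 4 groups did not overlap, and every mouse showed the same order, from untreated through the difference and IL-4 to the remainder.

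The group means of Itgax were 23.1 ± 2.70, 176 ± 22.9, 58.5 ± 3.03 and 244 ± 14.6 CPM (SD, n = 3) in untreated, IL-4, difference and remainder libraries. Against untreated cells this was a log2 fold change of 2.94 (SE 0.11; 7.65-fold) with IL-4, 1.34 (SE 0.11; 2.54-fold) in the difference and 3.40 (SE 0.11; 10.6-fold) in the remainder. The remainder exceeded the difference by 2.06 (SE 0.11) on the log2 scale, or 4.17-fold, and exceeded IL-4 alone by 0.47 (SE 0.10), or 1.38-fold. These are descriptions of the gene by which the group was chosen.

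**Figure D1:**
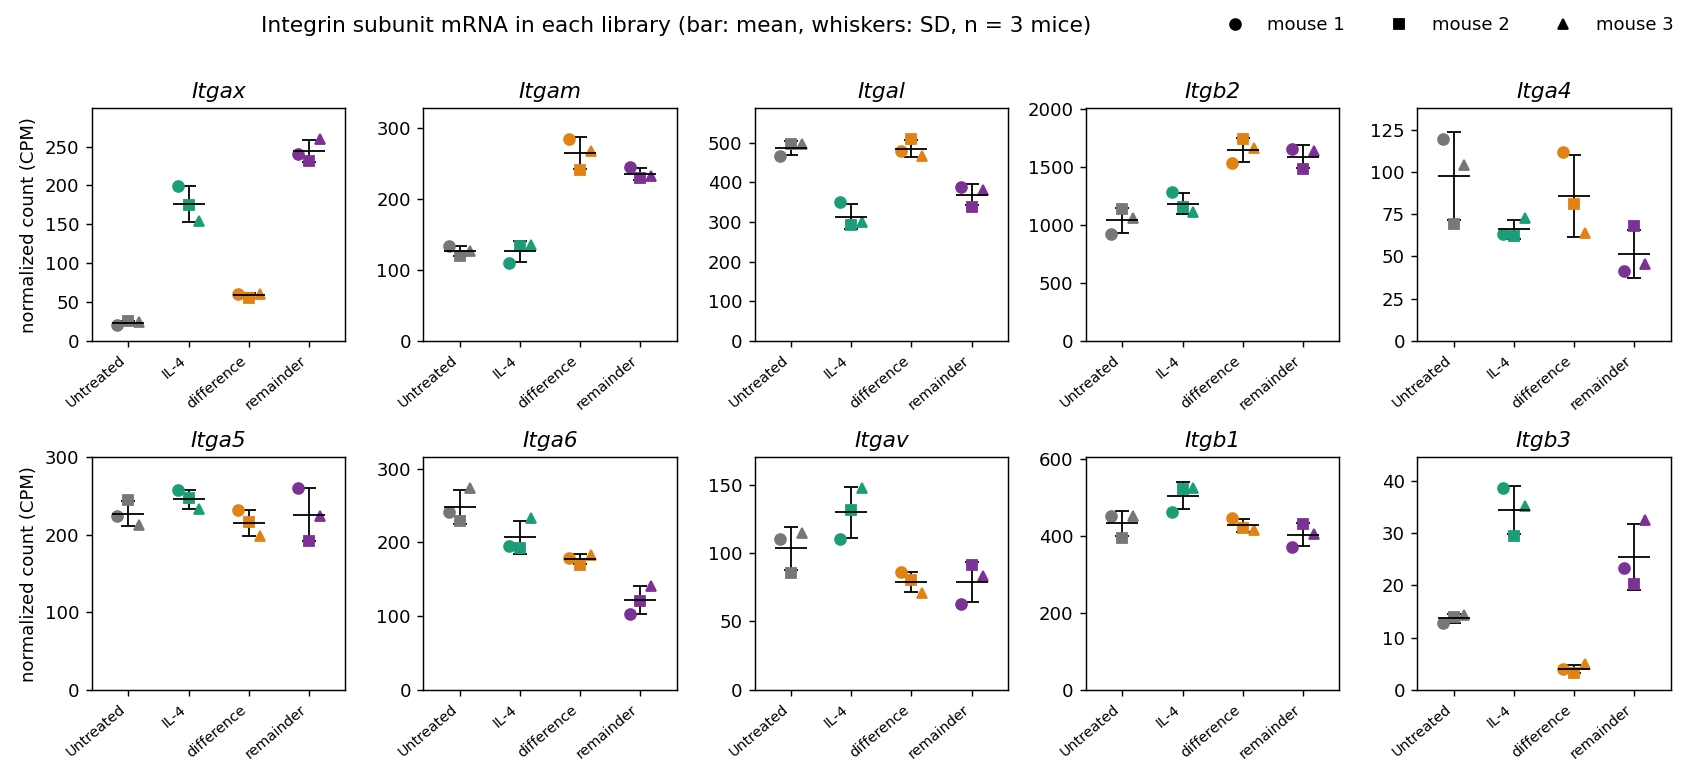
Normalized counts (CPM, vertical axis from 0) of the 10 integrin genes in untreated, IL-4, difference and remainder libraries, with 1 symbol per mouse, a bar at the mean and whiskers of 1 SD (n = 3). Itgax groups do not overlap, from 20.0 to 25.2 CPM in untreated cells up to 232 to 260.1 CPM in the remainder, and Itgb3 is lowest in the difference at 3.23 to 4.87 CPM.

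The summed level of 12 dendritic cell markers did not follow the order of Itgax over the groups. It was 500.1 to 547 CPM in untreated libraries, 1323 to 1692 with IL-4, 2315 to 3134 in the difference and 4217 to 5133 in the remainder. Of the 7 markers that could be tested, 3 rose with IL-4, 4 rose and 1 fell in the difference, and 5 rose and 2 fell in the remainder, against untreated cells. Over all tested genes 3.40%, 23.2% and 25.3% were called in these comparisons, in that order. The difference, in which Itgax was below IL-4 alone, had 4 of the 7 higher and 1 lower than IL-4 alone, where 20.3% of all genes were called. The sum was carried by the antigen presentation genes Cd74 and H2-Ab1, which macrophages also express. Ccr7, a chemokine receptor of migrating dendritic cells, had means of 0.256, 0.405, 4.04 and 11.3 CPM in untreated, IL-4, difference and remainder libraries. Zbtb46, a transcription factor of classical dendritic cells, had means of 0.372, 0.727, 0.472 and 1.13 CPM, in the same order as Itgax. It had a call in the remainder alone (log2 fold change 1.56, adjusted p = 0.011). Cd209a and Cd24a were called lower in the remainder, where Itgax was highest. The defining markers Flt3, Clec9a and Xcr1 had at most 5, 4 and 11 counts in any library. The part of other cells in the Itgax values was not tested.

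The other β2 partners followed neither the order nor the size of the Itgax change. Itgam, which encodes αM (CD11b), was 134, 119.9 and 126 CPM in untreated libraries and 109.8, 134 and 135 CPM with IL-4. It was 286, 242 and 268 CPM in the difference and 246, 229.7 and 233 CPM in the remainder. The untreated and IL-4 ranges overlapped, and all 6 Wnt3a-treated libraries lay above all 6 others.

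Itgam rose by a log2 fold change of 1.07 (SE 0.09; 2.09-fold) in the difference and 0.90 (SE 0.09; 1.86-fold) in the remainder against untreated cells (edgeR quasi-likelihood test, adjusted p = 1.4e-06 and 5.9e-06). With IL-4 alone the log2 fold change was -0.01, with a 95% interval from -0.20 to 0.19 (adjusted p = 0.99). The remainder and the difference were not separated (-0.17, interval -0.36 to 0.03, adjusted p = 0.34). In the annotation, Gm49368 covers 68.7% of the Itgam exon bases on the same strand and held at most 7 counts, so reads on the shared bases could be missing from the Itgam counts in every group.

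Itgal, which encodes αL of the receptor LFA-1, went the other way from Itgax with IL-4. Untreated libraries held 467, 496 and 496 CPM and IL-4 libraries 350.2, 291 and 299 CPM. The difference held 478, 509.9 and 467 CPM, and the remainder 389, 338 and 381 CPM. IL-4 and remainder libraries were below all untreated and difference libraries.

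Itgal fell by 0.63 on the log2 scale (SE 0.09) with IL-4 and by 0.40 (SE 0.09) in the remainder, against untreated cells (adjusted p = 0.00062 and 0.0035). Its difference libraries did not separate from untreated cells (0.00, interval -0.19 to 0.18, adjusted p = 0.98), and the remainder lay below the difference by a log2 fold change of -0.39 (adjusted p = 0.016). The IL-4 and remainder calls were lost without mouse 3, where the log2 fold changes were still -0.58 and -0.41 (adjusted p = 0.12 and 0.086). Calls over all genes also fell without that mouse, from 422 to 88 with IL-4 and from 3137 to 1389 in the remainder. The call between the parts was lost without mouse 2 (-0.28, adjusted p = 0.12) and without mouse 3 (-0.44, adjusted p = 0.25).

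Itgb2 encodes the β2 chain shared by these receptors. It was 920, 1136 and 1060 CPM in untreated libraries and 1282, 1158 and 1109 CPM with IL-4. The difference held 1532, 1745 and 1664 CPM and the remainder 1652, 1479 and 1641 CPM. Untreated and IL-4 ranges overlapped, and the Wnt3a-treated libraries were above both.

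Itgb2 rose 1.59-fold in the difference (log2 fold change 0.66, SE 0.10, adjusted p = 0.00017) and 1.53-fold in the remainder (0.61, SE 0.10, adjusted p = 0.00028). With IL-4 alone the log2 fold change was 0.19 (interval -0.02 to 0.39, adjusted p = 0.41), and between the parts it was -0.05 (interval -0.26 to 0.16, adjusted p = 0.83).

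Scaled to exon length, the balance of α chains that pair with β2 differed between the groups. Itgax made up 4.61% ± 0.47 of the summed level per kilobase of Itgax, Itgam, Itgal and Itgad in untreated cells and 33.4% ± 2.50 with IL-4 (SD, n = 3). It made up 8.77% ± 0.38 in the difference and 33.0% ± 1.30 in the remainder. Itgal went from 71.1% ± 1.27 in untreated cells to 43.5% ± 2.17 with IL-4, 53.2% ± 2.94 in the difference and 36.5% ± 1.04 in the remainder, while Itgam was highest in the difference at 38.0% ± 2.59. Itgad, the remaining partner, had at most 5 counts in any library and shares 8.02% of the 50-base stretches of Itgax. In a calculation added after seeing the data, when only exon bases not covered by another gene on the same strand were used as length, the Itgax share was 3.02%, 22.3%, 4.79% and 19.8% in the same order of groups and the Itgal share 46.4%, 29.0%, 29.1% and 21.8%. The Itgam share rose to between 48.7% and 66.1% and was then the largest of the α chains in every group, untreated cells included.

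**Figure D2:**
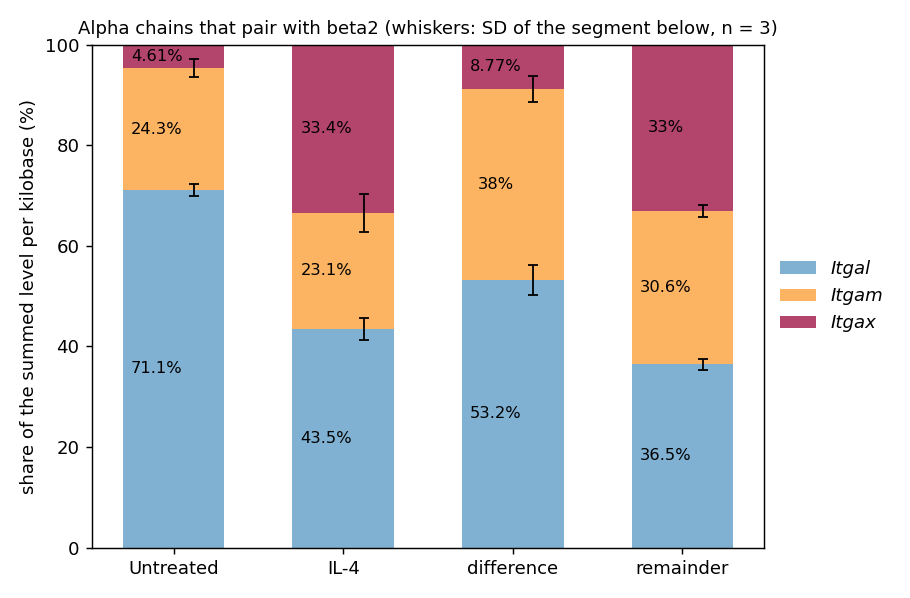
Share (%, vertical axis from 0 to 100) of Itgal, Itgam and Itgax in the summed level of the α chains that pair with β2. Levels are per kilobase of the whole exon length, and stacked bars are means of 3 mice in each group. Whiskers of 1 SD stand at the top of the Itgal and Itgam segments, and the Itgax segment has none. Itgax takes 4.61% in untreated cells, 33.4% with IL-4, 8.77% in the difference and 33.0% in the remainder.

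The members Itga4, Itga5 and Itga6, which encode α chains that pair with β1, were lower or not separated in the Wnt3a-treated libraries. Itga6, which encodes the laminin receptor chain α6, was 242, 229 and 274 CPM in untreated libraries and 195, 192 and 233 CPM with IL-4. It was 179, 169.6 and 183 CPM in the difference and 103, 121 and 141 CPM in the remainder. All remainder libraries were below all difference libraries, which were below all untreated and IL-4 libraries.

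Itga6 fell by 0.49 on the log2 scale (SE 0.11, adjusted p = 0.0057) in the difference and by 1.03 (SE 0.11, adjusted p = 1.1e-05) in the remainder. It was 1.46-fold lower in the remainder than in the difference (log2 fold change -0.54, SE 0.11, adjusted p = 0.011). Without mouse 1 that value was -0.43 (adjusted p = 0.13). With IL-4 alone it was -0.27 (interval -0.51 to -0.03, adjusted p = 0.28).

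Itga4, which encodes α4 of the VCAM-1 and fibronectin receptor VLA-4, had the largest standard errors of the 10 genes. Untreated libraries held 119.8, 69.0 and 104 CPM, IL-4 libraries 63.1, 62.2 and 72.7 CPM, the difference 112, 80.9 and 64.0 CPM, and the remainder 41.3, 67.8 and 45.6 CPM. All remainder libraries were below all untreated libraries, and the other ranges overlapped. Itga4 fell by 0.92 on the log2 scale (SE 0.23, adjusted p = 0.0081) in the remainder against untreated cells, a call lost without mouse 1 (-0.61, adjusted p = 0.082) and without mouse 3 (-0.79, adjusted p = 0.13). Between the parts the value was -0.73 (adjusted p = 0.085 by edgeR and 0.016 by DESeq2). Of the Itga4 exon bases, 8.04% lie opposite Cerkl, and the strand setting of the counting is not given in the sources used here.

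Itga5, which encodes the fibronectin receptor chain α5, ranged from 193 to 261 CPM over the 12 libraries and passed the test in no comparison. Its log2 fold changes against untreated cells were 0.11 (interval -0.11 to 0.33) with IL-4, -0.08 (interval -0.30 to 0.14) in the difference and -0.01 (interval -0.23 to 0.21) in the remainder. Itgb1, the β1 chain itself, ranged from 372 to 525 CPM. Its one call was lower in the remainder than with IL-4 alone (log2 fold change -0.32, SE 0.09, adjusted p = 0.014; -0.30 and adjusted p = 0.24 without mouse 3).

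Itgb3, which encodes the β3 chain of the vitronectin receptor αvβ3, was the only one of the 9 tested members called in opposite directions in the parts. Untreated libraries held 12.7, 14.0 and 14.2 CPM and IL-4 libraries 38.6, 29.4 and 35.1 CPM. The difference held 3.95, 3.23 and 4.87 CPM, or 69, 53 and 67 counts, and the remainder 23.3, 20.3 and 32.5 CPM. The difference lay below and the remainder above all untreated libraries.

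Itgb3 rose 2.52-fold with IL-4 (log2 fold change 1.33, SE 0.17, adjusted p = 0.00037) and 1.86-fold in the remainder (0.89, SE 0.17, adjusted p = 0.0015). In the difference it fell by 1.77 on the log2 scale (SE 0.20, adjusted p = 1.5e-05). The remainder exceeded the difference 6.35-fold (2.67, SE 0.19, adjusted p = 2.3e-06). Taken as deposited, the Wnt3a and Wnt3a+IL4 columns, which mix both parts, gave -0.30 and 0.10 for Itgb3 against untreated cells (adjusted p = 0.3 and 0.76).

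Itgav encodes αv, the partner of β3. It was 110.0, 85.7 and 114 CPM in untreated libraries and 110.2, 131 and 148 CPM with IL-4, and ranged from 62.6 to 91.0 CPM in the Wnt3a-treated libraries. Against untreated cells no change passed the test: 0.33 with IL-4 (adjusted p = 0.32), -0.39 in the difference (adjusted p = 0.072; 0.04 without mouse 2) and -0.39 in the remainder (adjusted p = 0.067; 0.012 without mouse 2). This depended on the settings of edgeR. With all genes of at least 1 count, Itgav was called higher with IL-4 (adjusted p = 0.046) and lower in the difference and the remainder (0.002 and 0.0016). It was also called lower in the labelled Wnt3a and Wnt3a+IL4 columns (0.024 and 0.025), and in the remainder with total counts alone (0.046). Of its exon bases, 5.90% lie opposite Gm13684. Another β chain that pairs with αv, Itgb5, was far more abundant than Itgb3, which made up 1.35%, 3.01%, 0.444% and 2.50% of their summed level per kilobase in untreated, IL-4, difference and remainder libraries. This pair was set side by side after its values were seen.

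Over the 9 members other than Itgax, 1 rose and 1 fell with IL-4 alone, against a background of 3.40% of all tested genes called (2.31% higher and 1.09% lower). In the difference 2 rose and 2 fell, where 23.2% of all genes were called (11.8% higher, 11.4% lower). In the remainder 3 rose and 3 fell, where 25.3% were called (13.6% higher, 11.7% lower). The median log2 fold change of the 9 was 0.11 with IL-4, -0.08 in the difference and -0.11 in the remainder, beside -0.00, -0.01 and -0.02 over all tested genes.

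Between the parts, 1 of the 9 was higher in the remainder (Itgb3) and 2 were lower (Itgal and Itga6), where 5.25% of all genes were called (2.87% higher, 2.38% lower). This comparison has no library in common with IL-4 against untreated cells, although the same 3 mice gave both. Itgb3 was called higher and Itgal lower in each. Itgax, untested, was also higher in each.

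**Figure D3:**
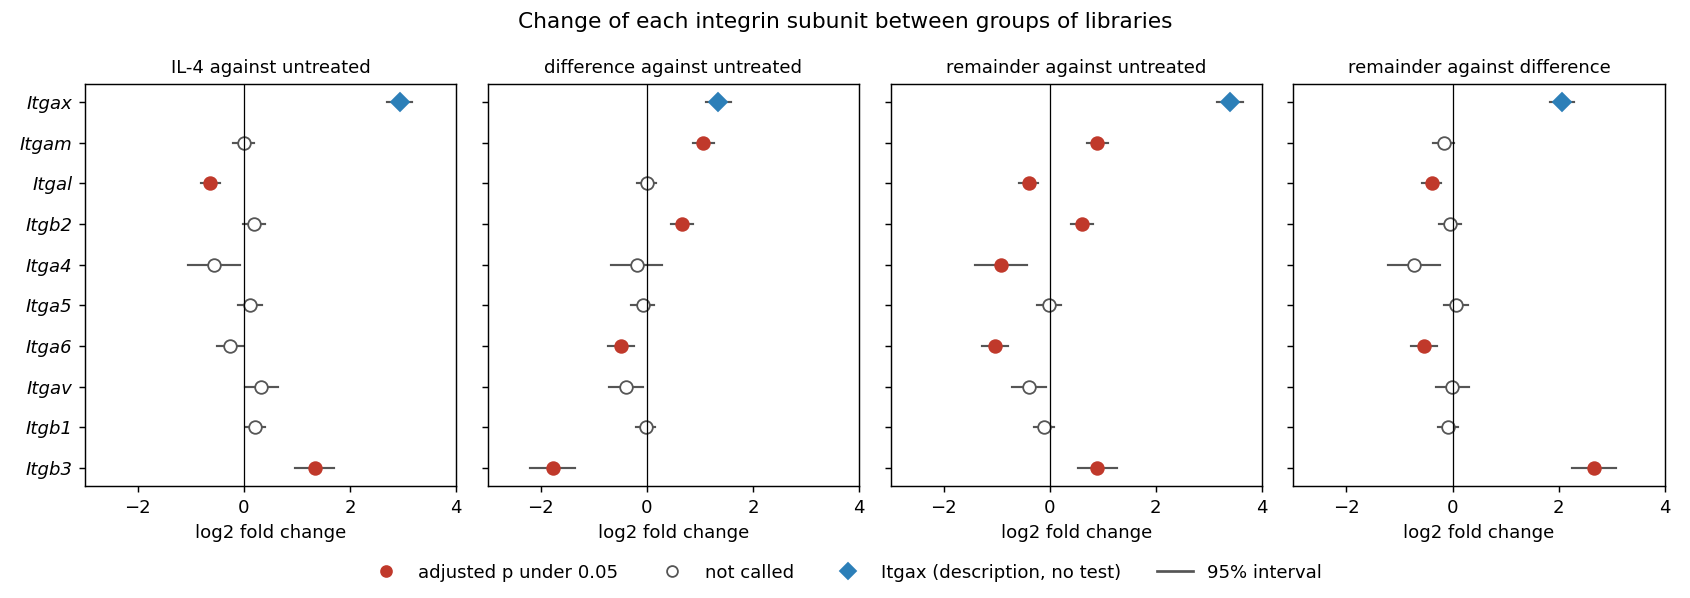
Log2 fold change (horizontal axis) of each of the 10 genes for IL-4, the difference and the remainder against untreated cells and for the remainder against the difference, with 95% intervals. Filled points passed an adjusted p of 0.05, open points did not, and diamonds are Itgax, which was not tested. Itgb3 is at 1.33, -1.77, 0.89 and 2.67 from left to right.

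Against IL-4 alone, the difference was higher in 3 of the 9 and lower in 2, where 20.3% of all genes were called (10.0% higher, 10.3% lower). Itgam (1.07), Itgal (0.63) and Itgb2 (0.48) were higher and Itgav (-0.72) and Itgb3 (-3.10) lower on the log2 scale (adjusted p = 1.2e-06, 9.5e-05, 0.0022, 0.0026 and 6.3e-08). The remainder was higher in 2 and lower in 3, where 20.3% were called (10.6% higher, 9.67% lower). Itgam (0.90) and Itgb2 (0.43) were higher and Itga6 (-0.77), Itgav (-0.72) and Itgb1 (-0.32) lower (adjusted p = 7.3e-06, 0.0054, 0.0002, 0.0029 and 0.014). Without mouse 3, Itgb2 and Itgav were called in neither comparison (adjusted p between 0.073 and 0.21). For Itgb3 the remainder was -0.44 from IL-4 alone (adjusted p = 0.079), which became -0.46 (adjusted p = 0.04) with the mouse as a block.

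**Figure D4:**
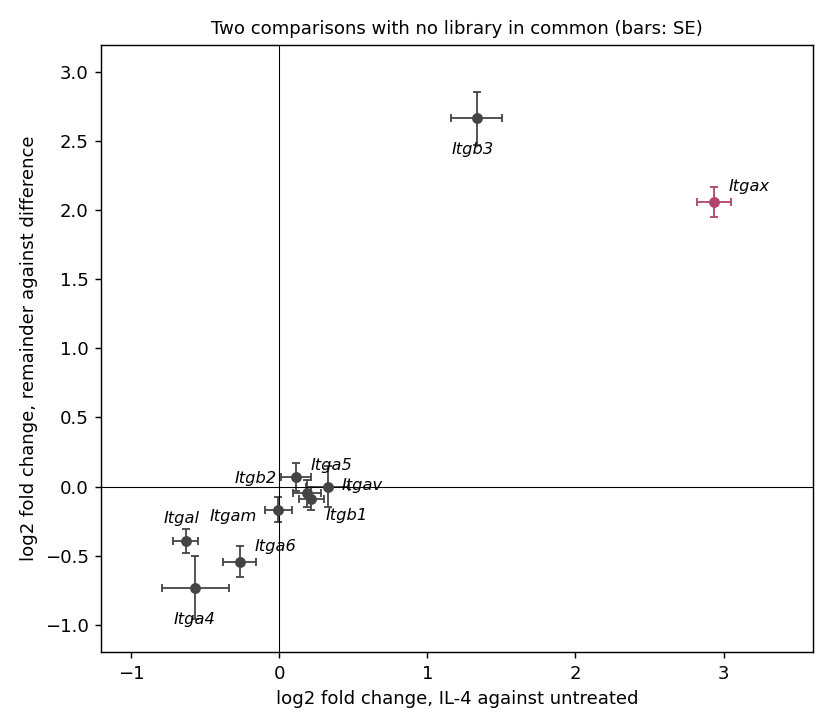
Log2 fold change of each of the 10 genes with IL-4 against untreated cells (horizontal axis) and in the remainder against the difference (vertical axis), with bars of 1 SE. Itgax (2.94 and 2.06) and Itgb3 (1.33 and 2.67) lie in the upper right, and Itgal (-0.63 and -0.39) in the lower left.

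The interaction, which is the IL-4 effect with Wnt3a minus that without, was computed under both assignments of the parts. With the remainder taken as Wnt3a+IL-4, 0 of the 9 members were called by edgeR and 1 by DESeq2, with 2 at an unadjusted p under 0.05, where 0.105% of all genes were called (0.0403% higher, 0.0644% lower). Itgb3 was then at 1.33 (SE 0.26, adjusted p = 0.082 by edgeR and 0.00095 by DESeq2) and Itgax at -0.88 (SE 0.15). With the difference taken as Wnt3a+IL-4, 3 members were called higher and 1 lower, where 7.33% of all genes were called (2.91% higher, 4.42% lower). Those were Itga4 (1.30), Itgal (1.03) and Itga6 (0.81), and Itgb3 (-4.00), with adjusted p of 0.023, 8.3e-05, 0.0052 and 2.8e-07, while Itgax was at -5.00 (SE 0.15). Which of the assignments is right cannot be told from the labels.

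Per kilobase of the whole exon length, Itgb2 had the highest and Itgb1 the second highest level in each of the 4 groups, without overlap between them. Itgb2 was 340.4 ± 35.9 and Itgb1 106 ± 7.96 CPM per kilobase in untreated cells (SD, n = 3). Itgax ranked 9 of 10 in untreated cells at 4.81 ± 0.56 and overlapped Itga4 above it, but not Itgb3 below it. It ranked 5 with IL-4 at 36.7 ± 4.77, 7 in the difference at 12.2 ± 0.63 and 4 in the remainder at 50.8 ± 3.03, where it overlapped Itgal above and Itgam below it. Itgb3 was last in untreated cells (2.31 ± 0.14) and in the difference (0.681 ± 0.139). Other neighbours in this order whose ranges overlapped were Itga6 and Itgam and also Itgav and Itga4 in untreated cells, Itga5 and Itgal, Itgam and Itga6, and Itgb3 and Itga4 with IL-4, Itgav and Itga4 in the difference, and Itgam and Itga5 and also Itgb3 and Itga4 in the remainder. The ranks of Itgam and of its neighbours depend on the exon length used. Per kilobase of exon free of other genes on the same strand, added after seeing the data, Itgam was 80.5 ± 4.49 in untreated cells, 80.2 ± 9.01 with IL-4, 168 ± 14.0 in the difference and 150 ± 5.49 in the remainder. It then ranked 3 in untreated and IL-4 libraries and 2 in both parts, above Itgb1 without overlap, and Itgax ranked 9, 6, 7 and 5.

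Among 17 other integrin chains, 8 passed the count filter. Of these 8, 0 were called with IL-4 alone by edgeR or DESeq2, and 3 had an unadjusted p under 0.05. In the difference 3 rose and 1 fell, and in the remainder 3 rose and 2 fell. The background over all tested genes was 3.40% called with IL-4, 23.2% in the difference and 25.3% in the remainder. Itga1, which encodes the collagen receptor chain α1, stood at 2.48 (difference) and 2.63 (remainder) on the log2 scale against untreated cells (adjusted p = 6e-05 and 2.7e-05). Its level was low, with 7 to 22 counts in untreated libraries. Mean levels of Itga1 were 0.733 CPM in untreated libraries, 4.20 in the difference and 4.67 in the remainder. Itgb8, the β chain of αvβ8, had at most 3 counts in untreated libraries, 7 to 16 in the difference and 10 to 33 in the remainder (adjusted p = 0.031 and 0.004), and no fold is given against so few counts. Itga9 was at -1.71 and -1.93 (adjusted p = 0.0027 and 0.001), and Itga8 at -0.30 (adjusted p = 0.58) and -1.42 (adjusted p = 0.014). Itga8 was also low, with 8 to 46 counts over the 12 libraries.

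Of 26 genes for integrin ligands, 15 were tested. With IL-4 alone 1 rose and 2 fell, in the difference 7 rose and 2 fell, in the remainder 8 rose and 1 fell, and between the parts 2 were higher and 2 lower in the remainder. Over all tested genes 3.40%, 23.2%, 25.3% and 5.25% were called in these comparisons, in that order. C3, the complement protein whose fragment iC3b binds αMβ2 and αXβ2, rose by log2 fold changes of 0.94 with IL-4, 2.76 in the difference and 3.45 in the remainder (adjusted p = 0.0012, 1.8e-08 and 2.7e-09). Thbs1, which encodes thrombospondin-1, was at -1.21, 2.6 and 2.06 (adjusted p = 0.0021, 3.9e-07 and 2.4e-06). The matrix protein gene Tgfbi was at -0.38, 2.38 and 2.03 (adjusted p = 0.029, 1.1e-09 and 2.7e-09). Col4a1, a basement membrane collagen, was at 1.91 and 1.10 in the difference and the remainder (adjusted p = 0.00013 and 0.0083).

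Of 25 genes for integrin activation and adaptor proteins, 19 were tested. With IL-4 alone 0 were called by edgeR and 1 by DESeq2, and 4 had an unadjusted p under 0.05. Against untreated cells 3 rose and 4 fell in the difference, 2 rose and 6 fell in the remainder, and 2 were higher and 1 lower in the remainder than in the difference. The shares of all tested genes called were again 3.40% with IL-4, 23.2% and 25.3% in the parts and 5.25% between them. Rasgrp2, which encodes an exchange factor that activates Rap1 upstream of integrins, was at -1.24 and -1.52 in the difference and the remainder (adjusted p = 0.001 and 0.00019). Parvg, which encodes γ-parvin, was at 1.51 and 1.44 (adjusted p = 2.3e-07 and 2.6e-07). Cyth1, which encodes cytohesin-1, a protein that binds the β2 tail, was at 0.31 and 0.77 (adjusted p = 0.042 and 6.5e-05). Lims1 was at 0.61 in the difference (adjusted p = 0.019) and 0.04 in the remainder (adjusted p = 0.88).

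Of 23 genes for kinases and modulators of integrin signaling, 22 were tested. With IL-4 alone 2 rose and 3 fell, in the difference 3 rose and 4 fell, in the remainder 4 rose and 7 fell, and 2 were called between the parts, both lower in the remainder. Beside these stand 3.40%, 23.2%, 25.3% and 5.25% of all tested genes. The Src family kinases did not move together. Src was at 2.53 and 2.69 in the difference and the remainder (adjusted p = 2.2e-07 and 9e-08), and Fgr at 0.51 with IL-4 and 1.11 in each of the parts (adjusted p = 0.017, 4.4e-06 and 3.7e-06). Lyn, also of that family, was at -0.34, -0.56 and -1.06 (adjusted p = 0.014, 5.5e-05 and 1.1e-07). The tetraspanin gene Cd81 was at -0.44, -1.01 and -1.26 (adjusted p = 0.01, 1.7e-06 and 1.8e-07).

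Among the 5 of 8859 genes with enough reads whose log2 CPM followed Itgax most closely over the 12 libraries were Ppp1r21 (Pearson r = 0.979), Cnr2 (0.972), Dcstamp (0.965) and St8sia1 (0.960). Pearson r does not measure the size of a change. Ppp1r21 had means of 93.1, 123, 105 and 135 CPM in untreated, IL-4, difference and remainder libraries. In the same order Cnr2 was at 63.2, 96.8, 75.4 and 105 CPM, and St8sia1 at 0.159, 3.24, 0.992 and 11.5 CPM. Dcstamp, a fusion gene of osteoclasts and giant cells, had means of 0.899, 8.51, 3.82 and 11.3 CPM in untreated, IL-4, difference and remainder libraries. Among the members, Itgb3 had the highest r with Itgax at 0.570 and Itgal the lowest at -0.792. Itgb3 ranked only 819 of the 8859 genes, and it fell in the difference, where Itgax was above untreated cells. These r values describe 12 libraries from 3 mice in 4 treatment groups and carry no test.

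Osteoclasts and platelets also carry Itgb3, so their markers are given beside it. The summed level of 7 osteoclast markers was 115 to 139.7 CPM in untreated libraries, 137 to 163 with IL-4, 208 to 277 in the difference and 229 to 263 in the remainder. Of the 6 that could be tested, 2 rose with IL-4, 3 rose and 1 fell in the difference, and 3 rose in the remainder, against untreated cells. Over all tested genes 3.40%, 23.2% and 25.3% were called in these comparisons, in that order. Acp5, an acid phosphatase, had means of 30.2, 38.4, 128.8 and 128.5 CPM in untreated, IL-4, difference and remainder libraries and made up most of the change in the sum. Ocstamp, a gene of osteoclast fusion, was at 0.245, 1.03, 0.0203 and 0.125 CPM, with at most 18 counts in any library, and was called higher with IL-4 and lower in the difference (adjusted p = 0.03 and 0.036). Dcstamp, whose levels are given above, was called higher with IL-4 and in both parts, and higher in the remainder than in the difference. Nfatc1 had means of 92.41, 86.95, 90.6 and 83.45 CPM in untreated, IL-4, difference and remainder libraries. In the same order Mmp9 was at 1.38, 3.29, 2.37 and 2.12 CPM, and Ctsk at 5.98, 9.95, 15.5 and 19.0 CPM. Calcr, a defining marker, had at most 1 count. The sum of 6 platelet markers was 12.4 to 13.9 CPM in untreated libraries, 12.96 to 19.2 with IL-4, 45.8 to 84.0 in the difference and 54.3 to 113 in the remainder. Most of it was Pf4, and the defining markers Gp9, Gp1bb and Gp6 had at most 3 counts in any library. The part of such cells in the Itgb3 values was not tested. Of 7 stromal cell markers the sum was at most 30.1 CPM. Of 10 neutrophil markers the sum stayed at or below 76.5 CPM in every library, and the defining marker Ly6g had at most 3 counts. The sum of 9 lymphocyte markers was 2.67 to 4.07 CPM over the 12 libraries, and most of it was Cd79b, with up to 68 counts. The natural killer cell gene Ncr1 had 0 counts in every library, which leaves room for an expected count of up to about 3 in a library (95% upper limit).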

How the data were processed

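The 10 members, the gene lists and the tests were chosen with earlier results of these data known. For the deposited raw counts, which were not normalized, the authors used Trimmomatic 0.36 on single-end reads, STAR 2.6.0 with the mm10 genome and HTSeq 0.11.1, per the submitters' processing notes and the study's methods. The study names UCSC genes, while rows carry Ensembl gene IDs; a symbol was found for 48058 of 48526. The strand setting of the counting is not given in the sources used here.

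The difference and the remainder of each mouse replaced the Wnt3a and Wnt3a+IL4 columns, which share reads. With 14171994 to 17453377 counts they had the depth of the other libraries. A gene needed 10 or more counts in 3 or more of the 12 libraries. The test was that of edgeR 4.0.16 under R 4.3.3 (quasi-likelihood test, TMM normalization, all 12 libraries in 1 fit, no term for the mouse, Benjamini-Hochberg adjusted p threshold of 0.05 over all tested genes). Standard errors were approximated as the log2 fold change divided by the square root of the F statistic, with 95% intervals from the fit's degrees of freedom. CPM values are TMM-normalized. Levels per kilobase used the union of exons in the GENCODE M21 annotation, and promoter windows came from RefSeq (GRCm38.p6). Likeness to Itgax was Pearson's r of log2 CPM with a prior count of 2, among tested genes whose mean reached 8 CPM in a group, and 1 of the 5 most alike is not reported here.

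Of the 4 lists of other integrin genes, the text names the 4 genes with the largest called log2 fold change and the same sign in all 3 mice. Itgb3 with Itgb5, and the exon bases free of other genes (shares and ranks), were chosen after values were seen. Alternatives were the labelled columns, DESeq2 1.42.0, other scalings, filters, thresholds and groups in the fit, the mouse as block, and each mouse left out.

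Titles give the mouse of each sample, so samples are paired. Over the 18 same-mouse pairs of libraries, deviations from group means correlated between -0.42 and 0.45 (6 over 0.1), and over 36 pairs from different mice between -0.41 and 0.38 (10 over 0.1).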

Additional observations from a re-analysis of the deposited data

Results flagged for a closer look

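Whether the effect of IL-4 differed between cells with and without Wnt3a depends on which part carries IL-4, which the labels do not settle. With the difference taken as Wnt3a+IL-4, 4 of the 9 tested genes were called, where 7.33% of all genes were. With the remainder taken as Wnt3a+IL-4, 0 of the 9 were called by edgeR and 1 by DESeq2, with 2 at an unadjusted p under 0.05, where 0.105% of all genes were called. With the remainder taken as Wnt3a+IL-4, the difference of the effects was -0.88 on the log2 scale for Itgax. With the difference taken as Wnt3a+IL-4, it was -5.00 for Itgax, -4.00 for Itgb3, 1.30 for Itga4, 1.03 for Itgal and 0.81 for Itga6. The Itgax values are a description, since that gene was chosen by this contrast, and the other 4 passed the edgeR test under that assignment. Each was in the same direction in all 3 mice. Without mouse 1, Itga4 (0.71, adjusted p = 0.26) and Itga6 (0.67, adjusted p = 0.066) were no longer called, and without mouse 3 Itga4 (1.42, adjusted p = 0.16) was not.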

How the results depend on the processing

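Libraries of 3 mice and 53 or more counts per member limit the precision. Some calls of Itgal, Itga4, Itga6, Itgav, Itgb1 and Itgb2 were lost when 1 mouse was left out, as given above. Without mouse 3, fewer genes were called over all genes as well, as given below. The numbers of members called by comparison (Itgax aside) changed as follows. With all genes of at least 1 count, 4 were called with IL-4 (2 in the report) and 1 in the interaction with the remainder as Wnt3a+IL-4 (0). DESeq2 and the labelled columns also gave 1 in that interaction, but not of the same gene. It was Itgb3 with all genes of at least 1 count and with DESeq2, and Itgal with the labelled columns (0.57, adjusted p = 0.0063 by edgeR). The labelled columns gave 0 between the parts, since both mix the same libraries. An adjusted p threshold of 0.01 left 1 between the parts. Requiring a log2 fold change of at least 1 left 1 with IL-4, 2 in the difference, 1 in the remainder, 1 between the parts, and against IL-4 alone 2 for the difference and 0 for the remainder. With each mouse left out in turn, the counts were 1 to 2 with IL-4 (1 without mouse 3), 3 to 6 for the difference against IL-4 alone (3 without mouse 3), 2 to 6 for the remainder against IL-4 alone (2 without mouse 3) and 2 to 4 for the interaction with the difference as Wnt3a+IL-4 (2 without mouse 1). The causes were not tested. The mouse as replicate block kept the number of members called with IL-4 at 2 and changed no call other than that of Itgb3 in the remainder against IL-4 alone. 

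Values that changed sign were called under neither setting (Itgax was not tested). Itgal in the difference was 0.0065 with DESeq2 or with its size factors, 0.0092 with all genes of at least 1 count and 0.010 with only the groups compared. Itga5 in the remainder was 0.0036 with all genes of at least 1 count, and Itgav between the parts was 0.0017 with at least 1 CPM in at least 3 libraries. With the labelled columns, Itgax (-0.22) and Itga4 (0.055) changed sign in the Wnt3a+IL4 column against IL-4 alone, as did Itga4 (0.46), Itga6 (0.18) and Itgb3 (-0.93) in the interaction. With each mouse left out, values spanned 0 for Itgam with IL-4 (-0.097 to 0.13), for Itgal (-0.043 to 0.039), Itga4 (-0.36 to 0.029) and Itgb1 (-0.087 to 0.036) in the difference, for Itga5 in the remainder (-0.13 to 0.15), and for Itgb2 (-0.13 to 0.061) and Itgav (-0.11 to 0.20) between the parts. They also did for Itga5 in the interaction with the remainder as Wnt3a+IL-4 (-0.086 to 0.038) and for Itgb2 (-0.32 to 0.076) and Itgb1 (-0.31 to 0.011) in that with the difference. 

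Over all genes, calls with IL-4 ranged from 88 without mouse 3 to 812 with all genes of at least 1 count (422 in the report), in the difference from 842 with a log2 fold change of at least 1 (1227 without mouse 3; 2884), and in the remainder from 917 (1389 without mouse 3; 3137). Between the parts they ranged from 0 with the labelled columns to 1454 with all genes of at least 1 count (101 without mouse 3, 1188 without mouse 2; 652), and against IL-4 alone from 835 in the difference (2519) and 733 in the remainder (2521). In the interactions they ranged from 0 to 575 (13) and from 262 to 1505 (910). Scaling by total counts alone moved the median gene by -0.10 (difference) and -0.13 (remainder), with 1133 genes higher and 2232 lower in the difference (1462 and 1422 in the report) and 1293 and 2340 in the remainder (1687 and 1450), and it reversed no member. The fit with only the groups compared was not run for the interactions, which use all groups, and the labelled columns have no second assignment.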
